A study of Mus musculus with 4 samples.

Results

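The nuclear factor I genes Nfia, Nfib, Nfic and Nfix carried 16 YAP peaks in Bmal1 KO epidermis, against 51 in Bmal1 WT epidermis. They are 4 of the 21631 protein-coding genes of the annotation, and their peaks are part of 14879 KO and 36576 WT peaks in all. A peak was linked to a gene when its summit, its highest point, lay inside the gene span, or within 100 kb of it with no other protein-coding span nearer. The genes were chosen on measured values: Nfib and Nfia were picked from these same lists for their dense sites and for a differing share of sites found again in KO. Peak numbers and retention at these genes are therefore descriptions. The window ended just beyond an Nfib peak of 42 WT reads, 99600 bp outside the span, and the next peak outward, with 51 reads at 107453 bp, was left out.

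Binding of YAP was measured by ChIP-seq, the sequencing of DNA fragments pulled down with an antibody to the protein. Epidermal cells came from adult mice of 18 to 25 weeks, taken at ZT4, that is 4 hours into the light phase. The KO group is named Bmal1 KO in the genotype label and Bmal1cKO in the protocol, and the WT group Bmal1 WT and Bmal1WT; the sources used here do not give the cells in which the deletion was made or its driver. BMAL1 is the activating core factor of the circadian clock, encoded by Arntl. Each genotype had 1 peak list named as pooled, and the sources used here do not give the number of animals. There is thus no replicate error, no test and no p-value.

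NFI proteins are transcription factors that bind DNA as dimers of any family members, at a palindrome whose arms read TTGGC and GCCAA. Nfib and Nfix are known from mouse work for maintaining hair follicle stem cells, and Nfib also for restraining the melanocyte stem cells beside them. Nfia is best known for glial development, Nfic for the growth of tooth roots, and Nfix for the embryonic to fetal switch of skeletal muscle. YAP is a co-activator with no DNA-binding domain of its own: it reaches DNA mainly through TEAD factors, often beside AP-1 factors. A YAP peak near a gene gives a position of binding and not the level of the gene's transcript.

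The tissue label was set against markers, as positions of peaks only. A linked WT peak was present at all 9 keratinocyte marker genes, 2 of 5 fibroblast, 2 of 4 immune and 3 of 4 melanocyte genes, and at 53.2% of all genes. A WT peak found again in KO was present at 9 keratinocyte, 1 fibroblast, 0 immune and 2 melanocyte genes of these, and at 30.0% of all genes. The part of other cell types in the results below was not tested. Summit reads, the number of ChIP reads at a summit, were recovered from the authors' fold and p as whole numbers. Their median was 52 in KO and 61 in WT over all peaks, and evenly spread ChIP reads gave 9.63 in both lists. Signal was lower in KO over the whole list, and with 1 list a genotype the deletion and the yield of each pull-down cannot be told apart.

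Of the start sites listed for Nfia, Nfic and Nfix, only the 1 in Nfic lay under a YAP peak. No start was listed for Nfib, so a YAP peak at its promoter could not be looked for. Promoter windows, from 250 bases before to 50 after a start, came from RefSeq (GRCm38.p6, the build mm10) for 3 of the 4 genes, with 6 windows in all. Nfia and Nfic had 1 window each, and the rest were further starts of Nfix. No window reached the upper end of the Nfic or the Nfix span. The Nfic window on chromosome 10, chr10:81427124-81427423 on the minus strand, shared 95 bp with the peak from 81426676 to 81427218, whose summit lay 161 bp downstream of the start. That window is printed because it is the only one of the 6 under a peak, and the Nfix window chr8:84775779-84776078, also on the minus strand, because its start is the next closest to a summit, at 482 bp. Capitals mark an AP-1 motif; both windows read 5′ to 3′ along the gene.
Nfic promoter: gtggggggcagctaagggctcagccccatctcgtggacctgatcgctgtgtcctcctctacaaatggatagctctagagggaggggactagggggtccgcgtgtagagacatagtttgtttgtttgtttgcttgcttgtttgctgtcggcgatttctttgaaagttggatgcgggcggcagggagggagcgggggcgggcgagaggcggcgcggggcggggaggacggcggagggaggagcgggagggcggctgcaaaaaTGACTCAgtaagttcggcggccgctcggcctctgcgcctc
Nfix promoter: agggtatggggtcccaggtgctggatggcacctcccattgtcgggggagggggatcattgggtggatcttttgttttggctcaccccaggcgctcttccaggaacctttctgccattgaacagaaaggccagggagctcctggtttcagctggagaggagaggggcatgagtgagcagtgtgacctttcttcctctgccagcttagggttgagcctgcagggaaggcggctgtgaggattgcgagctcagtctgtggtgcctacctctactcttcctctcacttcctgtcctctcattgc

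The AP-1 motif TGANTCA, which reads the same on both strands, occurred in the Nfic window as TGACTCA, 10 to 16 bases downstream of the start and inside the called peak. It was present in 7.04% of the 21045 promoter windows of protein-coding genes and in 5.25% of the 7225 windows that overlapped a WT peak. Another copy, TGATTCA, lay 81 to 75 bases upstream of a further Nfix start that no peak overlapped. Neither printed window held the TEAD motif (GGAATG or CATTCC, present in 13.5% of all windows), an NFI arm with a further base (TTGGCA or TGCCAA, 13.1%), the full NFI palindrome with 5 bases between its arms (0.0333%) or the E-box CACGTG (7.91%). Among all promoter windows 34.3% overlapped a WT peak and 11.7% a WT peak that was kept in KO, and in the family 1 of 6 windows did both. Most of these 6 are starts of Nfix alone, so the count is no rate of the family.

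Part of the family's peaks were found again in KO. Kept means that a WT peak and a KO peak shared at least 1 bp, and a WT peak with no such partner is WT-only; KO reads at WT-only sites are not known here. Kept were 16 of the 51 family peaks (31.4%, exact Clopper-Pearson 95% interval 19.1 to 45.9, counting error only), against 39.1% of all WT peaks. If each peak had been kept at the share of all WT peaks with similar reads, 17.8 of the 51 would have been. All 16 KO peaks of the family were shared with WT, as were 99.0% of all KO peaks, so no KO-only site was linked to these genes. Each kept WT peak met exactly 1 KO peak.

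Retention in the family was ordered by WT reads, with 1 gap. No family peak was kept among 6 under 40 reads (1.27% of all such WT peaks were kept) and 16 of 40 to 49 reads (3.82%). Kept were 1 of 7 from 50 to 59 reads (13.4%) and 2 of 4 from 60 to 69 reads (31.8%), all 3 at Nfib. Then 0 of 5 were kept from 70 to 79 reads, a range in which 54.9% of all WT peaks were kept. Of these 5, 4 belonged to Nfia and 1 to Nfic. Nfia was picked for its low retention, so this gap describes the choice and supports nothing. Above that range every family peak was kept: 4 of 4 from 80 to 99 reads (80.7%), 3 of 3 from 100 to 119 (96.8%) and 6 of 6 from 120 (99.8%).

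**Figure D1:**
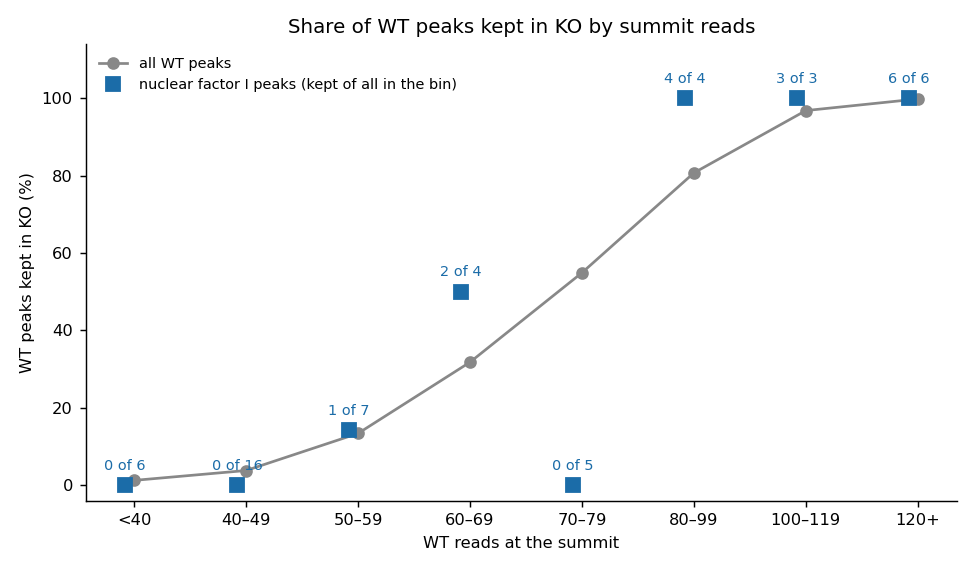
Share of WT peaks kept in KO (percent, y axis) by WT reads at the summit (x axis), for all WT peaks (grey line) and for the nuclear factor I peaks (blue squares, with kept peaks of all in the bin). The family follows the grey line except from 70 to 79 reads, where 0 of 5 were kept against 54.9% of all. Of these 5, 4 belong to Nfia, a gene picked for its low retention.

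Nfib, on chromosome 4 from 82290173 to 82506751, was the gene of the family with the most YAP sites and the highest of them. It had 10 KO peaks, against 26 WT peaks, and 10 of the 26 were kept (38.5%, 20.2 to 59.4), where the reads of these peaks would give 8.86. Only 10 genes had more linked WT peaks than Nfib; the median gene with any had 2. Inside its span of 217 kb, WT peaks stood at 6.93 per 100 kb, against a median of 0.792 over 2427 genes of at least 100 kb, 83 of which were denser. Its 16 WT-only peaks were weak, with 38 to 65 reads.

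The highest Nfib site, inside the span from 82446636 to 82447740, had 122 KO reads, against 207 WT reads. Of all 36576 WT peaks 283 had more reads. The next, from 82470037 to 82470872 and also inside, had 113 KO reads, against 198 WT reads. Above the even-spread background these gave log2 KO to WT ratios of -0.81 (95% counting interval -1.16 to -0.47) and -0.87 (-1.23 to -0.51). The median over all 14315 kept WT peaks was -0.88, so both lay at the general level of the KO list.

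A further high Nfib site, 6486 bp outside the lower end of the span, from 82283287 to 82284063, had 79 KO reads, against 191 WT reads. Its log2 ratio of -1.39 (-1.81 to -0.97) was lower than those of the pair inside the span, with intervals that overlap theirs. Only 13 of the 1671 kept WT peaks of at least 150 reads had a lower ratio, a description only, since Nfib was picked from these lists. At the other extreme, the inside peak from 82342010 to 82342850 had 89 KO reads, against 121 WT reads, and a ratio of -0.49 (-0.93 to -0.05). This was above the ratio of 96.0% of all kept peaks of at least 120 reads, and the site at -1.39 was above 3.15% of them. On the linear scale the 2 sites had KO signals of 0.382 and 0.713 of the WT signal. They were set side by side as the extremes of the Nfib sites of at least 120 reads. Their counting intervals do not overlap, but for extremes chosen by value this is no test of a difference.

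Another strong Nfib site lay 36452 bp outside the upper end of the span, from 82542764 to 82543497, with 80 KO reads, against 129 WT reads (log2 ratio -0.76). Near that end the gene had a run of kept but weaker sites. The peak from 82505525 to 82506886, whose summit lay 195 bp inside the end of the span, was the widest of the family at 1362 bp. It reached over that end, and whether an Nfib start lies there is not given here. At this site KO had 43 reads in a peak of 380 bp, against 84 WT reads. An inside peak from 82497212 to 82498033 had 45 KO reads, against 106 WT reads, the lowest ratio of the gene at -1.45 (-2.06 to -0.83). Just outside, the peak from 82510705 to 82511726 had 34 KO reads, against 64 WT reads; its KO summit lay 247 bp away, the largest shift in the family.

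At Nfib some WT-only peaks stood beside kept ones. The strongest WT-only peak of the gene, with 65 reads from 82343923 to 82344562, lay 2024 bp from the kept peak of 121 reads. The kept peak with the highest ratio of the family, -0.38 (-1.11 to 0.35), was a weak one of 43 KO and 53 WT reads from 82520555 to 82520879, 1070 bp from a WT-only peak of 45 reads. Ratios at weak WT peaks are high throughout the list, since a ratio exists only where KO was called: the median over kept peaks of 50 to 59 WT reads was -0.57.

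**Figure D2:**
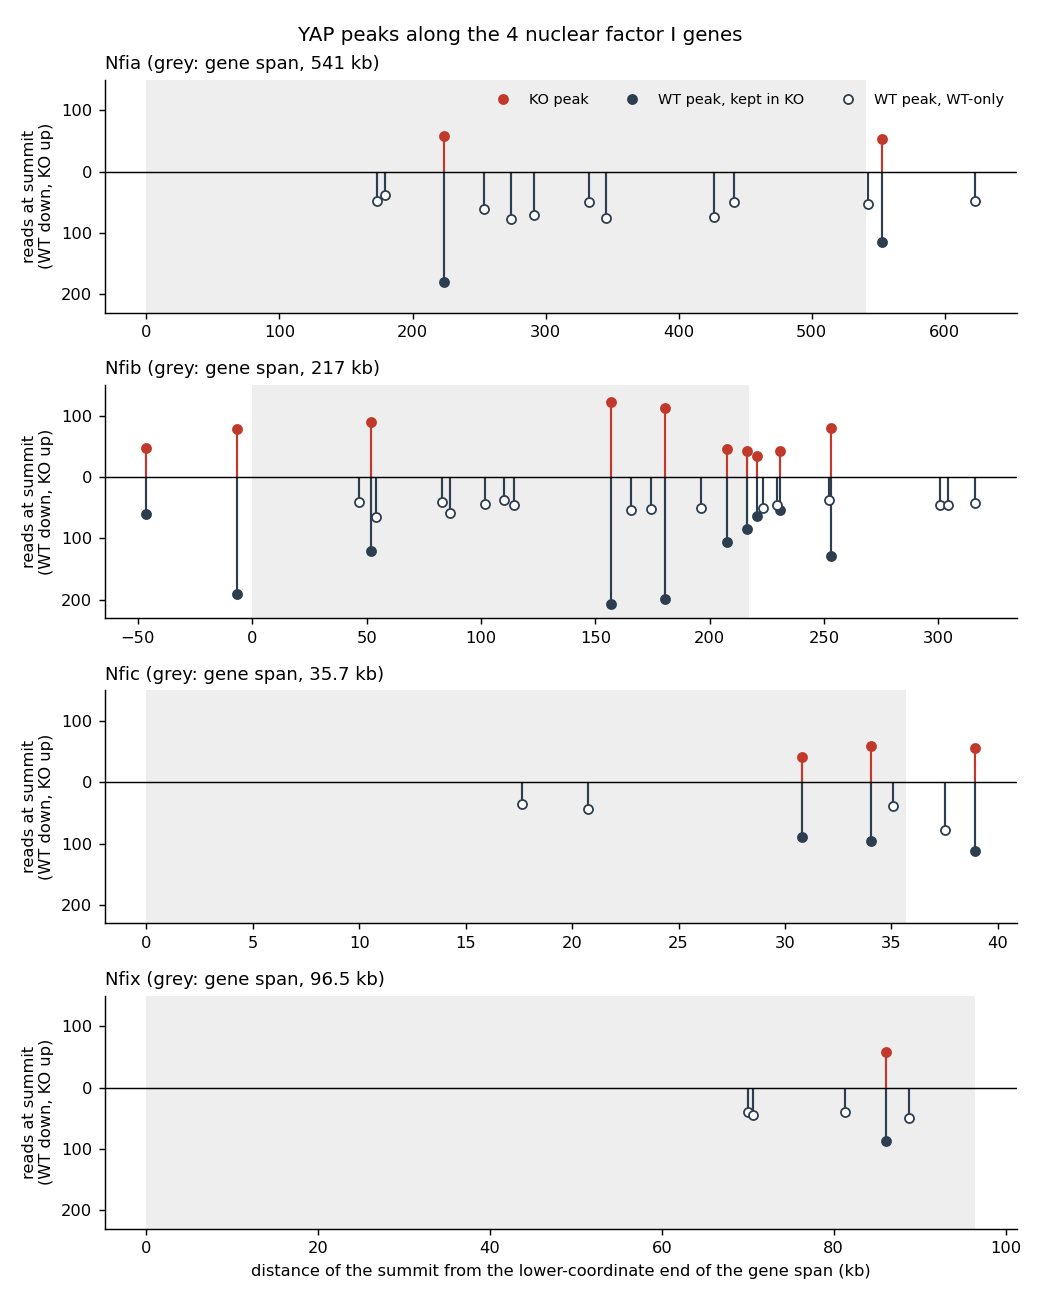
Reads at each summit (KO upward, WT downward) against the distance of the summit from the lower-coordinate end of each gene span (kb, grey: the span). Filled WT circles were kept in KO and open circles were WT-only: 2 of 13 kept at Nfia, 10 of 26 at Nfib, 3 of 7 at Nfic and 1 of 5 at Nfix.

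Nfia, on chromosome 4 from 97578066 to 98118876, had the fewest sites found in KO for its number. It had 2 KO peaks, against 13 WT peaks, and 2 of the 13 were kept (15.4%, 1.92 to 45.4), where their reads would give 4.78. Among 543 genes with at least 10 linked WT peaks the median kept share was 42.9%, and 5 genes had a lower share than Nfia. For this low share the gene was picked, so the rank describes it and supports nothing. The span of 541 kb held 10 of the WT peaks, at 1.85 per 100 kb, and 702 of the 2427 long genes were denser.

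The strongest Nfia site, inside the span from 97801284 to 97802134, had 59 KO reads, against 180 WT reads. Its log2 ratio was -1.79 (-2.28 to -1.29), a KO signal of 0.290 of the WT signal above background. No kept WT peak of at least 150 reads had a lower ratio among the 1671, the next lowest outside the family being -1.72. From 120 reads 3 of 3686 were lower. These ranks come from the same lists in which Nfia was picked for low retention, so they describe the site and support nothing. The local background at the summit was 13.1 reads in KO and 13.0 in WT, so it was nearly equal in both lists, and with it in place of the even-spread background the ratio was -1.86. The KO summit lay 14 bp from the WT summit.

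The other kept Nfia site, 12121 bp outside the upper end from 98130642 to 98131402, had 54 KO reads, against 115 WT reads. Its log2 ratio was -1.25 (-1.80 to -0.70), against a median of -0.98 over all kept WT peaks of 100 to 119 reads. Of those peaks 16.1% had a lower ratio. The 11 WT-only peaks had 38 to 77 reads. They included the peaks of 77 reads from 97851703 to 97852178, 75 from 97923431 to 97924127, 73 from 98003984 to 98004565 and 71 from 97868556 to 97869309, all inside the span. At the last the caller's background was 23.1 reads, against the even 9.63, and its authors' fold was 2.96; at the other 3 peaks the background was 9.63 to 11.5 reads. Another WT-only peak, of 53 reads from 98120200 to 98120655, lay 1492 bp beyond the upper end.

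No Nfia peak lay near its listed start. The start at 97581943 on the plus strand was 169151 bp from the closest summit, a WT-only peak of 48 reads from 97750924 to 97751291. The sites were also far apart, with a median of 15778 bp from a summit to the nearest other WT summit, against 4164 bp at Nfib and 5416 bp over all WT peaks.

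**Figure D3:**
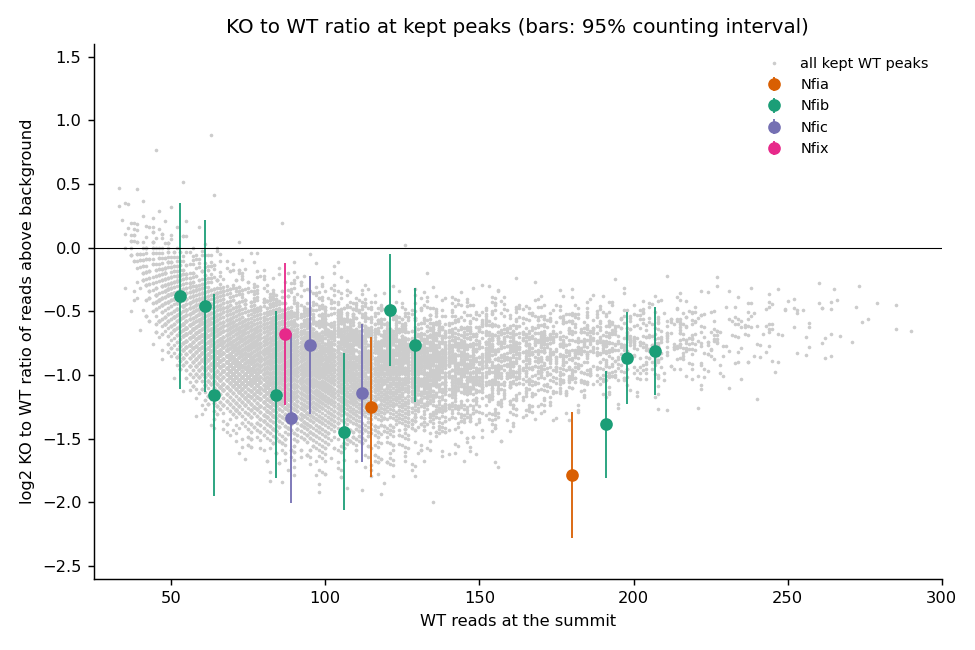
Log2 KO to WT ratio of summit reads above background (y axis) against WT reads (x axis) for all 14315 kept WT peaks (grey) and the 16 of the family (colours by gene, bars: 95% counting intervals). The Nfia peak of 180 WT reads, at -1.79, is the lowest of the 1671 with at least 150 WT reads. Of these, 13 lie below the Nfib peak of 191 reads, at -1.39. Both genes were picked from these same lists, so the ranks describe the peaks and support nothing.

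Nfic, on chromosome 10 from 81396191 to 81431919, had 3 KO peaks, against 7 WT peaks, and 3 of the 7 were kept (42.9%, 9.90 to 81.6), where their reads would give 3.19. The kept site at the printed promoter had 41 KO reads, against 89 WT reads, with a log2 ratio of -1.34 (-2.01 to -0.67). The other kept inside peak, from 81429415 to 81430529, had 60 KO reads, against 95 WT reads (-0.76, -1.30 to -0.22). Its background was 9.63 reads in KO and 18.7 in WT. The site with the most reads, 3219 bp outside the upper end from 81434634 to 81435487, had 56 KO reads, against 112 WT reads (-1.14, -1.68 to -0.60). A wide WT-only peak of 77 reads, from 81432780 to 81434017, had its summit 1440 bp from that site. On its other side, 651 bp inside the end of the span, lay a WT-only peak of 39 reads from 81430997 to 81431430. In this short gene of 35.7 kb all 7 sites lay within 3218 bp of another.

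Nfix, on chromosome 8 from 84704712 to 84801238, had the weakest sites of the family. It had 1 KO peak, against 5 WT peaks, all inside the span of 96.5 kb. The kept peak, from 84790550 to 84791021, had 58 KO reads, against 87 WT reads, with a log2 ratio of -0.68 (-1.24 to -0.12). Its ratio was above 86.1% of kept peaks of 80 to 99 WT reads. The 4 WT-only peaks had 39, 44, 40 and 49 reads, a range in which few peaks are kept anywhere. The strongest of them, from 84793192 to 84793698, lay 2685 bp from the kept one. Peaks of 39 and 44 reads lay 1093 and 482 bp downstream of the listed start that heads the printed Nfix window.

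**Figure D4:**
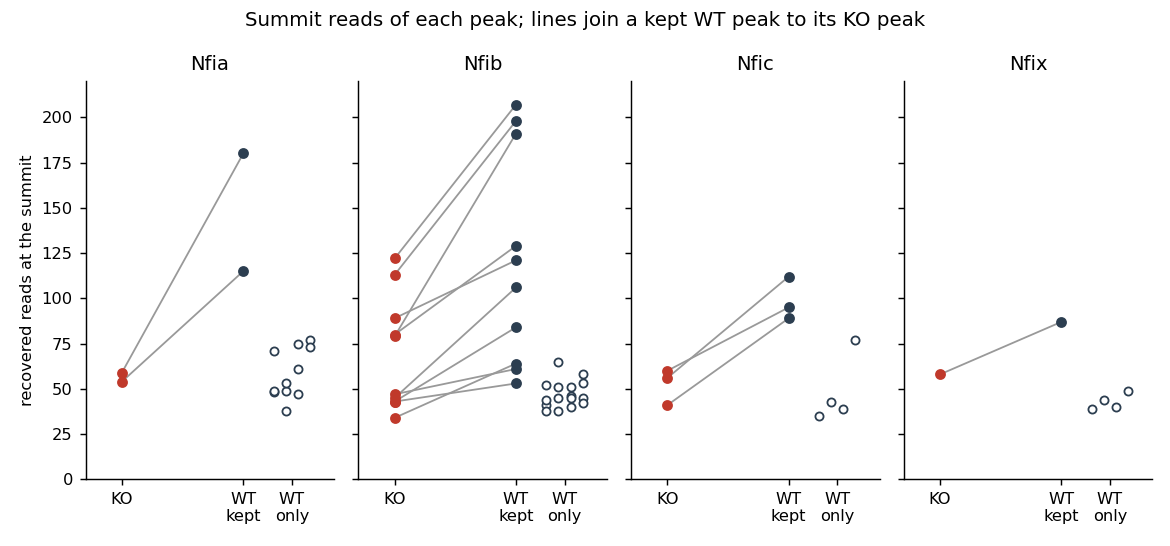
Recovered summit reads (y axis) of every nuclear factor I peak, by gene: KO (red) joined to its kept WT peak (dark) and WT-only peaks (open, spread sideways to be seen). KO reads were lower at all 16 joined pairs, and WT-only peaks reached 77 reads at Nfia and Nfic, 65 at Nfib and 49 at Nfix.

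Across the family, KO reads were lower than WT reads at 16 of 16 kept sites, with KO reads of 34 to 122 (median 57) and WT reads of 53 to 207 (median 109). The same held at 99.5% of all kept sites. The median log2 ratio was -1.00, against -0.88 for all kept WT peaks, and 8 of the 16 lay below that value. The counting intervals of 14 of the 16 held -0.88; those of the Nfia peak of 180 WT reads and the Nfib peak of 191 did not. Over the 6 family sites of at least 120 reads the median was -0.84. Most of these single peaks thus could not be told from the median of all kept sites within their counting error, which was wide.

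Kept family peaks were wider in WT than WT-only ones, with medians of 829 and 463 bp, and all WT peaks showed medians of 687 and 435 bp. The KO peak was narrower than its WT partner at 15 of 16 sites, and at 96.0% of all kept sites. KO family peaks had a median of 487 bp and WT family peaks 508 bp, where all KO peaks had 448 bp and all WT peaks 516 bp. KO and WT summits of a kept site lay 7 to 247 bp apart, with a median of 56 bp, against 33 bp over all kept WT peaks.

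The family's sites were mostly inside the genes and away from their ends. Of the WT peaks 35 of 51 lay inside a span (68.6%), against 53.3% of all WT peaks. Within 2 kb of an end of the linked gene lay 5 of 51 (9.80%), against 26.8% of all WT peaks. The shares of all WT peaks also count peaks farther than 100 kb from any gene, which the family cannot hold. The long genes Nfia and Nfib held 13 and 26 of the 51 peaks. At the short gene Nfic the share near an end was 42.9%. These 5 were the kept Nfib peak at its upper end, the Nfia peak of 53 reads and 3 Nfic peaks, of which the one of 95 WT reads was kept. Kept were 9 of the 35 peaks inside and 7 of the 16 outside, 5 of these at Nfib. Of the 35 inside, 10 belonged to Nfia, which was picked for its low retention. The kept shares of all WT peaks inside and outside spans were not worked out, nor were peaks of similar reads compared. The split is therefore a count and no result about position.

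Genes of regulators of epidermis and hair follicle, called partner genes here, were set beside the family. Action of these with NFI was not tested, and the list was chosen with earlier results of these data known, so its shares are descriptions. Of 28 such genes 27 had a linked WT peak, against 53.2% of all genes, and 25 had a kept one, against 30.0% of all genes. Kept were 112 of their 238 WT peaks (47.1%, 40.6 to 53.6), against 39.1% of all WT peaks. Shares for peaks of similar reads were not worked out for this list. The median log2 ratio at the kept sites was -0.83, against -0.88 over all kept WT peaks. The median gene had 3 kept of 8 WT peaks. Grhl2, a factor of epithelial junctions, had the strongest site, with 199 KO reads, against 247 WT reads. Trp63, the master regulator of the epidermal lineage, had 24 WT peaks, 14 of them kept, and the top one had 156 KO reads, against 235 WT reads.

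Several of the genes are known from hair follicle stem cells. The strongest site of Sox9 had 88 KO reads, against 145 WT reads. Tcf7l1 had 74 KO reads, against 110 WT reads, and Lhx2 had 47 KO reads, against 66 WT reads. Nfatc1, which keeps these stem cells quiescent, had 91 KO reads, against 176 WT reads. Id1, an inhibitor of basic helix-loop-helix factors, had the lowest ratio of the top sites, with 53 KO reads, against 123 WT reads (log2 -1.39). Tfap2b and Kdf1 had WT peaks of 95 and 71 reads at most and no kept one, and Tbx1 had no peak in reach.

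**Figure D5:**
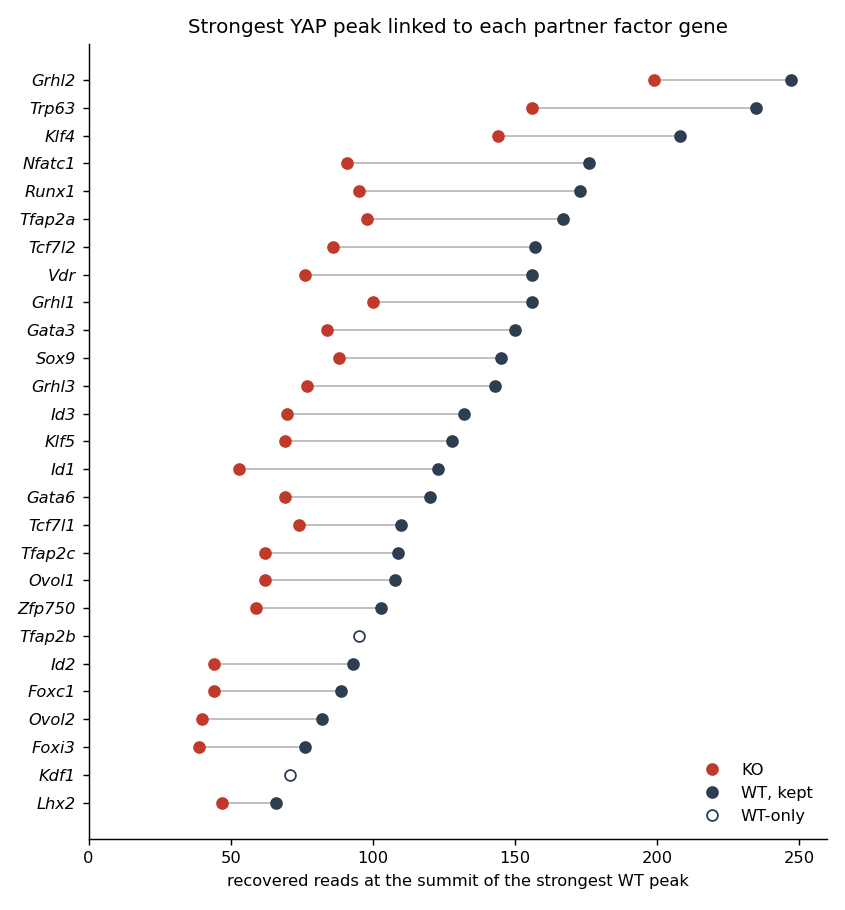
Recovered reads (x axis) at the strongest WT peak linked to each of the 27 partner genes with one (y axis), in KO (red) and WT (dark; open where WT-only). KO lies left of WT at every joined pair, from Grhl2 with 199 KO and 247 WT reads to Lhx2 with 47 KO and 66 WT reads.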

How the data were processed

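Of 4 samples, the 2 YAP pull-downs have a peak list each, and the 2 inputs were not analysed here. MACS2 2.1.1, SAMtools 1.5, Trimmomatic 0.36 and the build mm10 are named, with no roles, in the submitters' processing notes. The sources used here give no aligner and no filters. The 2 deposited lists hold 10 columns: a score (10 times the −log10 q), a fold (ratio of summit signal to background), the −log10 p and −log10 q by the authors, and the summit. These deposited values are the authors'. Per the labels' protocols, 25 to 50 M reads were sequenced per sample; the exact depth of each list is unknown.

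Fold and −log10 p together fix the whole reads and the background of a summit once the scaling of the ChIP reads is known. Whole fractions of a fitting scaling fit as well, so the largest that fitted was taken. All read counts and intervals rest on that choice. Reads matched within 0.002 for 100% of peaks in both lists, with ChIP scaled by 0.842 (KO) and 0.694 (WT). With these 3% off, 0.518% and 1.77% matched. On simulated lists of 14879 and 36576 peaks, 100% and 99.99% of reads came back exactly. These lists were built with the same formula and similar scalings, so they do not check the choice of scaling. Ratios subtract 9.63 reads on both sides and use the strongest overlapping KO peak. Ratio intervals assume Poisson counts. Reads are not independent molecules, so intervals cover counting error only.

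Named peaks were each gene's 5 with most WT reads, those within 2 kb of a gene end, the strongest WT-only peak and the extremes of the ratio; others were named after their values were seen. Genes, lists and tests were chosen with earlier results of these data known. Alternatives covered the overlap rule, limits on both lists, the window and the background. Python 3.11.15, scipy 1.17.1 and bedtools 2.31.1 were used.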

Additional observations from a re-analysis of the deposited data

How the results depend on the processing

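Of the alternative values, 80 stayed within the interval or a factor of 1.5 of the reported one, and 17 moved. Wide intervals at genes with few peaks make staying easy. The median log2 ratio of the family stayed negative, but shares and counts have no sign to turn. Set against all WT peaks, kept shares did change sides. The family was lower as reported, but not with a fold of at least 8 (2 of 10 against 19.4%). Nfic was higher as reported and lower with 50% reciprocal overlap. Nfib was just lower as reported and higher with the WT list cut to the number of KO peaks (100% against 77.8%). With only as many top-scoring WT peaks as there are KO peaks, 76.5% of family WT peaks were kept (77.8% of all), with 2 of 5 at Nfia, 100% at Nfib, 3 of 4 at Nfic and 100% at Nfix (1 peak); such a list holds only stronger peaks. With a fold of at least 8 in both lists, the kept share was 0% at Nfia and 0% at Nfic (2 WT peaks each), with 2 of 10 in the family and 19.4% of all WT peaks kept. That limit left 0, 2, 0 and 0 KO peaks at Nfia, Nfib, Nfic and Nfix, and 2, 6, 2 and 0 WT peaks. Inside the spans alone, Nfib had 5 KO and 15 WT peaks and Nfia 1 KO peak; within 10 kb Nfia also had 1 KO peak, as fewer peaks are in reach. Over the alternatives the median log2 ratio of the family lay between -0.86 without background subtraction and -1.15 within 10 kb. With 50% reciprocal overlap it was -0.87, against -0.86 for all kept WT peaks, the smallest gap of the settings with both values. The gap was widest with WT peaks of at least 100 reads (-1.14 against -0.92). With at least 80 reads it was -1.14 against -0.93, and with local backgrounds -0.92 against -0.88. Local backgrounds and score deciles in place of reads were added after seeing the data. No paired analysis was possible because a single peak list stood for each genotype. The weakest KO peak of the whole list had 29 reads, so a WT-only site may hold KO signal too low to be called.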
